A study of Rattus norvegicus with 8 samples.

Results

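The cervix of the pregnant rat was examined for the transcripts of 10 genes that store, take up, release and export iron, in animals given lipopolysaccharide (LPS, the endotoxin of Gram-negative bacteria) and in controls. The genes were chosen by name, from the known biology of cellular iron, but with earlier results of these data known. Each of the 10 has a row among the 29884 gene symbols of the deposited counts. All animals were wild-type pregnant Sprague-Dawley rats on gestational day 17. The LPS group received 100 µg/kg LPS into the peritoneum, the controls received phosphate-buffered saline (PBS) in the same volume, and cervical tissue was taken 12 hours later for RNA sequencing. Each group held 4 libraries, which the series describes as biological replicates. The sources used here give neither the age of the animals nor whether tissue was pooled.

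Iron enters most cells bound to transferrin through the transferrin receptor, or unbound through metal carriers of the SLC39 family, and is carried out of the endosome by the divalent metal transporter DMT1. What is not used at once is stored in ferritin, a hollow shell of heavy and light chains, and leaves the cell through ferroportin, which works beside copper enzymes that oxidise iron on its way out. The iron regulatory proteins bind iron-responsive elements in the mRNAs of ferritin, ferroportin and the transferrin receptor when iron is scarce, blocking translation of the ferritin and ferroportin mRNAs and protecting that of the receptor. In infection, immune cells and tissues of mammals are known to hold iron back from bacteria by storing it and by lowering its export. Counts of mRNA do not show the translational side of this control.

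After LPS, 4 of the 10 genes were higher, 2 were lower and 4 did not pass the test. Higher were both ferritin chains, Fth1 (2.07-fold) and Ftl1 (1.52-fold), and the importers Slc39a14 (4.76-fold) and Slc11a2 (2.32-fold). Lower were the exporter Slc40a1, 2.72-fold, and the ferroxidase Heph, 1.51-fold. The transferrin receptor Tfrc, the ferritin cargo receptor Ncoa4 and the iron regulatory proteins Aco1 and Ireb2 did not pass. All 10 passed the filter on low counts. Of the 16117 genes tested, 16.9% were called, 9.49% higher and 7.45% lower, that is, at an adjusted p under 0.05 in edgeR's quasi-likelihood test with Benjamini-Hochberg adjustment. For 6 of the 10 genes, the 6 that were called, the groups did not overlap, beside 23.4% of all genes tested. The median log2 fold change (LPS minus PBS) was 0.42 over the 10 genes and 0.01 over all genes tested. The 10 were chosen with earlier results of these data known, so these shares describe them and are no test. Levels are CPM (counts scaled to a library of 1e6, with TMM factors, the trimmed mean of M values, applied) and are given for replicates 1 to 4 of a group in that order.

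**Figure D1:**
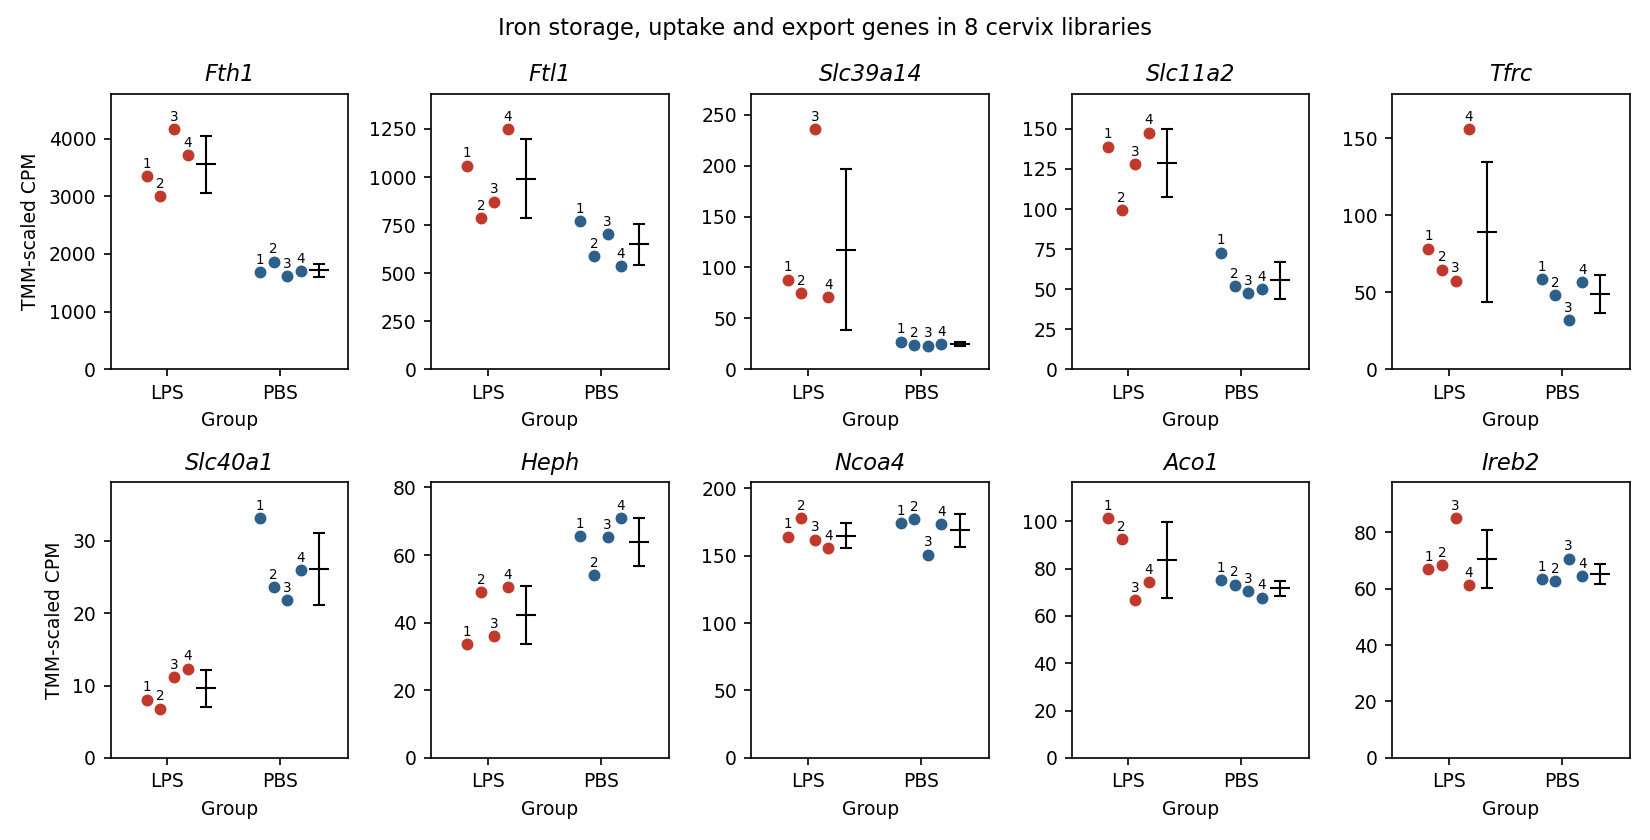
The level of each of the 10 genes in each library, in TMM-scaled CPM on a linear axis that starts at 0, with LPS on the left and PBS on the right of each panel. Points are libraries, numbered by replicate, and the bar beside them is the mean with its SD (n = 4 per group). The groups do not overlap for Fth1, Ftl1, Slc39a14, Slc11a2, Slc40a1 and Heph, and overlap for the other 4 genes.

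LPS libraries held 39580706 to 40408153 counts and PBS libraries 33191039 to 40634384, PBS replicate 4 being the shallowest. The 13 protein-coding transcripts of the mitochondrial genome took 4.33 to 5.11% of counts in LPS and 5.69 to 7.75% in PBS, and the part of this difference in the results was not tested. The labelled tissue was checked against 12 markers of the cervix and lower reproductive tract, all of which passed the filter. Of these, Hoxa13 was higher in LPS, and Emx2, Oxtr and Pgr were lower. None of the 8 placenta and decidua markers with a row passed the filter. Of the markers of other cells, 9 of 11 tested neutrophil genes, 11 of 16 macrophage genes and 6 of 10 fibroblast genes were higher. Lower were 3 macrophage genes, 7 of 11 red cell genes, 7 of 12 smooth muscle genes and 1 of 8 squamous epithelium genes. Over all genes tested, 9.49% were higher and 7.45% lower. Of 11 hepatocyte markers 2 passed the filter, and 1 of them was lower. In a piece of tissue, fewer cells of a type and less RNA per cell cannot be told apart.

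Both ferritin genes rose. Fth1 encodes the heavy chain, which holds the ferroxidase centre that oxidises iron for storage. It had 3354, 2997, 4158 and 3715 CPM in LPS libraries, against 1685, 1868, 1609.98 and 1697 CPM in PBS libraries. Every LPS library was above every PBS library, and LPS replicate 3 was the highest. The means were 3556 ± 497 CPM in LPS and 1715 ± 109 CPM in PBS (SD, n = 4 each), a log2 fold change of 1.05 (SE 0.12, edgeR adjusted p = 0.00148). Its call held in every alternative tried.

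Ftl1 encodes the light chain, which lacks the ferroxidase centre and favours formation of the iron core. It had 1059.7, 785, 872 and 1247 CPM in LPS libraries, against 772, 588, 704 and 537 CPM in PBS libraries. The groups did not overlap, but LPS replicate 2 lay close to PBS replicate 1. The log2 fold change was 0.61 (SE 0.17, edgeR adjusted p = 0.0459). That call was lost under 9 of 16 alternatives, among them leaving out LPS replicate 1, 3 or 4 or PBS replicate 2, 3 or 4, with values from 0.48 to 0.70 when 1 library was left out.

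The balance of the ferritin chains can be read within a library, free of scaling. The count of Fth1 was 3.16, 3.82, 4.77 and 2.98 times that of Ftl1 in LPS libraries, against 2.18, 3.18, 2.29 and 3.16 times in PBS libraries. LPS replicates 2 and 3 were above all PBS libraries, and LPS replicates 1 and 4 fell within the PBS range. The mean log2 ratio was 1.86 ± 0.31 in LPS and 1.41 ± 0.29 in PBS (SD, n = 4 each). This is a difference of 0.44, or of 0.31 without LPS replicate 3. These ratios compare libraries and not the chains with each other, since the counts are not corrected for length. The RefSeq gene table names 5 pseudogenes of Fth1 and 14 of Ftl1, none of which has a row in the counts, so reads shared with such copies could have been lost or added. The Ftl1-like gene Ftl1l1, which has its own row, had 0.614 to 1.20 CPM in LPS and 0.320 to 0.766 CPM in PBS.

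The largest rise of the 10 genes was that of Slc39a14, which encodes ZIP14, a carrier that moves iron, zinc and manganese across the plasma membrane. Slc39a14 had 87.9, 74.9, 235 and 71.1 CPM in LPS libraries, against 27.2, 23.7, 23.3 and 24.4 CPM in PBS libraries. The groups were far apart, and LPS replicate 3 stood far above the other LPS libraries. The log2 fold change was 2.25 (SE 0.39, edgeR adjusted p = 0.00661), and 1.66 (edgeR adjusted p = 0.000352) without LPS replicate 3. The same library held the most Il6, a cytokine known to induce Slc39a14 in mouse liver, with 18.7 CPM where LPS replicates 1, 2 and 4 had 0.692, 0.384 and 1.98 CPM and PBS libraries 0 to 0.644 CPM. The part of Il6 in the level of Slc39a14 was not tested.

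Slc11a2 encodes DMT1, which moves iron out of the endosome and, in the gut, in from the lumen. It had 139, 99.1, 128 and 148 CPM in LPS libraries, against 72.7, 51.8, 47.5 and 49.9 CPM in PBS libraries. All LPS libraries were above all PBS libraries, and PBS replicate 1 was the highest of its group. On the log2 scale the difference was 1.21 (SE 0.17, edgeR adjusted p = 0.00295), and the call held in every alternative. The count of Slc39a14 relative to that of Slc11a2 was 0.633, 0.756, 1.84 and 0.481 in LPS libraries, against 0.374, 0.458, 0.491 and 0.489 in PBS libraries, so that LPS replicate 4 lay among the PBS libraries.

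The transferrin receptor was uneven among the LPS libraries. Tfrc had 78.2, 64.6, 57.5 and 156 CPM in LPS libraries, against 58.7, 48.3, 32.1 and 56.6 CPM in PBS libraries. LPS replicate 4 was far above the rest, and LPS replicate 3 lay just below PBS replicate 1. This gave a log2 fold change of 0.86 (95% interval 0.11 to 1.61, edgeR adjusted p = 0.108), and 0.45 without LPS replicate 4. DESeq2 called it higher (0.85, DESeq2 adjusted p = 0.0425). The receptor also marks dividing cells and red cell precursors.

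**Figure D2:**
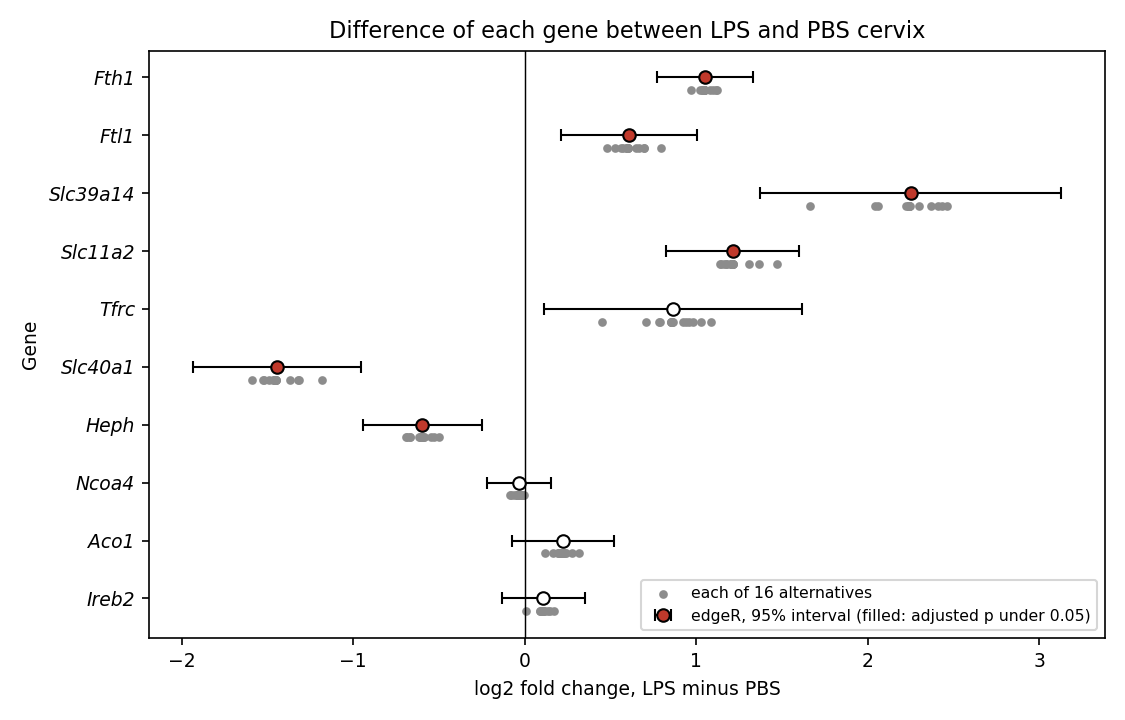
The log2 fold change of each gene, LPS minus PBS, from edgeR with its 95% interval (circles, filled where the adjusted p was under 0.05), and below each circle the values under the 16 alternatives in grey. Fth1, Slc39a14, Slc11a2 and Slc40a1 stay far from 0 throughout, with Slc40a1 on the negative side, and Tfrc reaches down to 0.45.

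Ferroportin transcripts fell. Slc40a1 encodes ferroportin, the only known iron exporter of mammalian cells, which is abundant in macrophages that recycle red cells. It had 8.05, 6.78, 11.2 and 12.3 CPM in LPS libraries, against 33.2, 23.6, 21.8 and 26.0 CPM in PBS libraries. The highest LPS library was well below the lowest PBS library. The means were 9.59 ± 2.60 CPM in LPS and 26.1 ± 4.98 CPM in PBS (SD, n = 4 each), a log2 fold change of -1.45 (SE 0.21, edgeR adjusted p = 0.00381), and the call held in every alternative. The gene overlaps Asnsd1 in the RefSeq gene table (assembly GRCr8), whose level was 28.9 to 31.1 CPM in LPS and 26.8 to 33.3 CPM in PBS.

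Macrophage markers moved too, in both directions, and the red cell markers that were called were all lower. The 18 macrophage markers summed to 1779 to 2376 CPM in LPS and 799 to 1067 CPM in PBS, and 11 of the 16 tested were higher. The 3 that were lower, Lyve1, Timd4 and Ccr2, were named after their values were seen, as was Mrc1. Timd4, a receptor for dying cells on resident macrophages, had 0.436 ± 0.212 CPM in LPS and 3.79 ± 1.81 CPM in PBS (n = 4 each, edgeR adjusted p = 0.00625). Lyve1, the hyaluronan receptor of resident macrophages and lymphatic vessels, had 14.4 ± 3.86 CPM in LPS and 28.9 ± 6.30 CPM in PBS (edgeR adjusted p = 0.0166). Ccr2, a chemokine receptor of monocytes, had 4.34 ± 1.94 CPM in LPS and 11.3 ± 3.30 CPM in PBS (edgeR adjusted p = 0.0292). Mrc1 and Cd163, which also mark resident macrophages, were among the 11 higher, and Mrc1 had 196 ± 36.9 CPM in LPS and 76.6 ± 20.2 CPM in PBS (edgeR adjusted p = 0.00376). The red cell markers summed to 125 to 688 CPM in LPS and 746 to 2327 CPM in PBS. None of the macrophage or red cell markers with a row was at 0 in all libraries. The part of these cells in the fall of Slc40a1 was not tested.

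Heph encodes hephaestin, a membrane copper enzyme that oxidises iron as it leaves through ferroportin. It had 33.6, 49.0, 36.0 and 50.4 CPM in LPS libraries, against 65.6, 54.1, 65.2 and 71.0 CPM in PBS libraries. The groups did not overlap, though LPS replicate 4 and PBS replicate 2 were close. This gave a log2 fold change of -0.60 (SE 0.15, edgeR adjusted p = 0.0304). The call was lost without LPS replicate 1 or 3, without PBS replicate 1, 3 or 4, and with PBS replicate 1 and LPS replicate 2 both left out, with values from -0.69 to -0.50 when 1 library was left out.

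Of the 4 ratios taken within libraries, that of receptor to exporter was the one whose groups did not overlap. The count of Tfrc was 9.71, 9.52, 5.15 and 12.6 times that of Slc40a1 in LPS libraries, against 1.77, 2.05, 1.47 and 2.18 times in PBS libraries. The lowest LPS ratio was above the highest PBS ratio. Slc40a1 alone also separated the groups, with a log2 fold change of -1.45, while Tfrc alone did not pass the test. The separation therefore cannot be read as a change of Tfrc. The mean log2 ratio was 3.14 ± 0.55 in LPS and 0.88 ± 0.25 in PBS (SD, n = 4 each), and the difference of 2.25 stayed between 2.08 and 2.51 when any 1 library was left out.

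**Figure D3:**
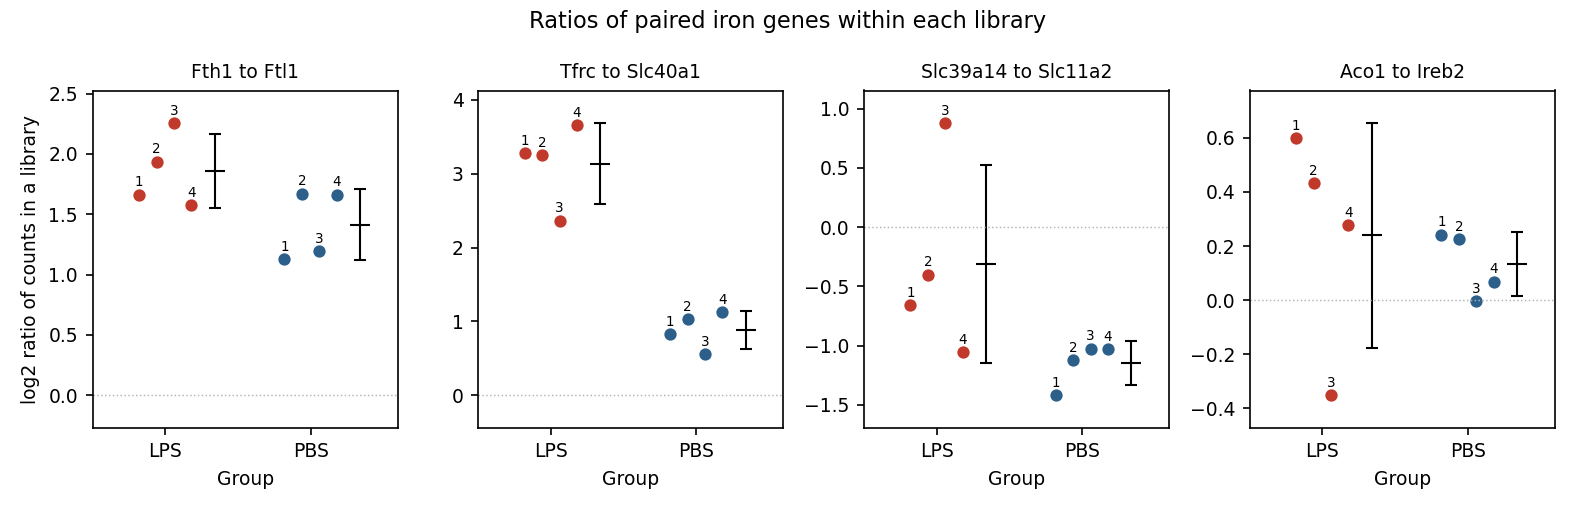
The log2 ratio of the counts of 2 genes within each library, for 4 pairs of iron genes, with LPS on the left and PBS on the right of each panel. Points are libraries, numbered by replicate, and bars are the mean with its SD (n = 4 per group). Tfrc to Slc40a1 separates the groups, and the other 3 ratios overlap.

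The gene of ferritin release and those of the iron sensors did not pass the test. Ncoa4 encodes the receptor that carries ferritin to the lysosome for breakdown. It had 164, 178, 162 and 155 CPM in LPS libraries, against 174, 177, 151 and 173 CPM in PBS libraries. The groups overlapped throughout, and the log2 fold change was -0.035 (95% interval -0.22 to 0.15, edgeR adjusted p = 0.807). That interval is narrower than those of the other 9 genes.

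Aco1 encodes IRP1, which is the cytosolic aconitase when it holds an iron-sulphur cluster and binds mRNA when it does not. It had 101, 92.3, 66.8 and 74.2 CPM in LPS libraries, against 75.2, 73.2, 70.5 and 67.7 CPM in PBS libraries. LPS replicates 1 and 2 were above all PBS libraries and LPS replicate 3 below them. Its log2 fold change was 0.22 (95% interval -0.073 to 0.52, edgeR adjusted p = 0.271).

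Ireb2 encodes IRP2, which is degraded when iron is plentiful. It had 67.0, 68.4, 85.1 and 61.2 CPM in LPS libraries, against 63.5, 62.6, 70.6 and 64.5 CPM in PBS libraries. LPS replicate 3 was the highest and LPS replicate 4 the lowest of all 8. Its log2 fold change was 0.11 (95% interval -0.13 to 0.35, edgeR adjusted p = 0.52). The count of Aco1 relative to that of Ireb2 was 1.51, 1.35, 0.784 and 1.21 in LPS libraries, against 1.18, 1.17, 0.998 and 1.05 in PBS libraries, with LPS replicate 3 the lowest of all.

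Of the LPS libraries, replicate 3 held the most Fth1, Slc39a14 and Ireb2 and the least Tfrc and Aco1. Replicate 4 held the most Ftl1, Tfrc, Slc40a1, Slc11a2 and Heph and the least Slc39a14, Ncoa4 and Ireb2. Replicate 2 had the least Fth1, Ftl1, Slc40a1 and Slc11a2.

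The stretch before the start of transcription is shown for Slc40a1 and Slc11a2, a fall and a rise whose calls held under every alternative. RefSeq promoter entries (build GRCr8) matched 7 of the 10 genes, with 8 starts in all. Fth1, Ftl1 and Slc39a14, all called higher, had no entry. The calls of Fth1 and Slc39a14 also held under every alternative, but their stretches could not be shown. Each sequence is the 250 bases before the start, 5′ to 3′ on the gene's strand, the minus strand in each case. Capitals mark a loose form of the NF-kB site (GGG, any 5 bases, CC) on either strand, with overlapping matches merged.
Slc40a1, chr9:55543461-55543710: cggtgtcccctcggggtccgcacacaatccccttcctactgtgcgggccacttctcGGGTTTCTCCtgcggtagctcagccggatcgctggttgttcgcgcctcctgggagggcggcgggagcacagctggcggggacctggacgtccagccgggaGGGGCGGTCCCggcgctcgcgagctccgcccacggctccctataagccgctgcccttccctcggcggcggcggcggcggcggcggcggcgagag
Slc11a2, upstream start, chr7:133418940-133419189: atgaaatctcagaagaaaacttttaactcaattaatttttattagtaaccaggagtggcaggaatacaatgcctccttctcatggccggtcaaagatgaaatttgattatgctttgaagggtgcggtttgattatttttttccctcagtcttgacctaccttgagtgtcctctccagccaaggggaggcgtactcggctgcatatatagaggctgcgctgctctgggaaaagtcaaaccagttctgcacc
Slc11a2, downstream start, chr7:133417789-133418038: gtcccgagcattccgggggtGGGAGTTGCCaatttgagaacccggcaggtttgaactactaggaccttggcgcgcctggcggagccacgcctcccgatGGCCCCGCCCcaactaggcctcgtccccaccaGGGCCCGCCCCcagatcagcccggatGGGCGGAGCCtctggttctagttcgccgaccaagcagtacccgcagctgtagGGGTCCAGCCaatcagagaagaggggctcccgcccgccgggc
The starts of Slc11a2 differ in composition. The upstream stretch is 43.6% G and C, and the downstream one 68.0%, close to the 74.0% of Slc40a1. The NF-kB form was found 4 times before Slc40a1, 7 times before the downstream start of Slc11a2 and 0 times before the upstream start. Matches that overlap or lie on both strands of the same bases were each counted, so these counts exceed the runs of capitals. The form is common, with a match in 42.3% of the 33469 RefSeq windows of this length. Those windows were not matched for their share of G and C. The hypoxia core letters ACGTG were in none of these 3 stretches (16.6% of all windows), and GCGTG, its other form, was found before the downstream start of Slc11a2 alone (25.9% of all windows). TGACNNNGC, the antioxidant element, and TTCNNNGAA, the STAT site, matched none of the 3 (10.1% and 7.67% of all windows). All motifs were searched on both strands. Counts per gene symbol do not tell the starts of Slc11a2 apart.

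Around these genes, 128 other genes of iron and haem handling had a row in the table. Of the 119 that were tested, 14 were higher and 9 lower, or 19.3%, beside 16.9% of all genes tested, and their median log2 fold change was 0.08. These lists were drawn up with earlier results of the same data known, and genes named beyond 2 per list were named after their values were seen.

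Among 13 tested ferroxidases, ferrireductases and iron chaperones, the mRNAs of 3 were higher and of 0 lower (23.1%, beside 16.9% of all genes, median 0.16). Cp, ceruloplasmin, the secreted relative of hephaestin, had 1156 ± 229 CPM in LPS and 172 ± 78.0 CPM in PBS (n = 4 each), a log2 fold change of 2.75 (edgeR adjusted p = 0.0013), opposite in sign to Heph. The metalloreductase Steap4 had 589 ± 66.5 CPM in LPS and 139 ± 3.89 CPM in PBS (2.09, edgeR adjusted p = 0.000133). Steap2 rose by 1.32 (edgeR adjusted p = 0.0305), but its groups overlapped and its call was lost without LPS replicate 1, 2 or 3 or PBS replicate 2, 3 or 4. Steap3, the endosomal reductase that serves DMT1, had 27.5 ± 4.52 CPM in LPS and 24.8 ± 4.63 CPM in PBS (0.15, edgeR adjusted p = 0.572).

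Of 9 tested genes of the transferrin cycle and other uptake, 2 were higher and 1 lower (33.3%, beside 16.9% of all genes, median 0.13). Slc39a8, the closest relative of Slc39a14, had 61.2, 63.5, 143 and 56.1 CPM in LPS libraries, against 15.6, 12.2, 14.0 and 7.82 CPM in PBS libraries. LPS replicate 3 was the highest, as it was for Slc39a14. On the log2 scale the rise was 2.70 (SE 0.35, edgeR adjusted p = 0.00225). Slc11a1, the relative of DMT1 in the phagosomes of macrophages and neutrophils, had 31.5 ± 10.4 CPM in LPS and 3.54 ± 1.01 CPM in PBS (3.15, edgeR adjusted p = 0.000648). The 17 neutrophil markers summed to 481 to 1771 CPM in LPS and 56.8 to 87.8 CPM in PBS, with Ltf and Np4 at 0 throughout, and their part in this rise was not tested. Scara5, a ferritin receptor, fell by 1.18 on the log2 scale (edgeR adjusted p = 0.0161), and this call did not hold without PBS replicate 2. Transferrin itself, Tf, had 106 ± 20.7 CPM in LPS and 118 ± 13.3 CPM in PBS (edgeR adjusted p = 0.514).

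Hepcidin, the hormone that causes ferroportin to be degraded, was hardly detected. Hamp had 0 to 3 counts in LPS libraries and 1 to 4 in PBS libraries. These are 0 to 0.0734 CPM in LPS and 0.0246 to 0.120 CPM in PBS, where 3 counts correspond to 0.0734 to 0.0899 CPM, and it was not tested. Of 18 tested genes of the hepcidin axis and of the degradation of iron regulators, 0 were higher and 3 lower (median -0.029). This is 16.7%, close to the 16.9% of all genes tested. Bmp2, a ligand of the pathway that drives hepcidin in liver, had 6.96 ± 0.932 CPM in LPS and 13.4 ± 3.02 CPM in PBS (-0.94, edgeR adjusted p = 0.00979). Id1, a target of BMP signalling, had 25.4 ± 9.79 CPM in LPS and 60.4 ± 9.54 CPM in PBS (-1.25, edgeR adjusted p = 0.0115), a call lost with PBS replicate 1 and LPS replicate 2 both left out. Smad7, an inhibitor in the same pathway, fell by 0.71 (edgeR adjusted p = 0.0352), a call lost without LPS replicate 1, 2 or 3 or PBS replicate 2 or 4. Fbxl5, which marks IRP2 for degradation, had 92.8 ± 17.3 CPM in LPS and 74.2 ± 0.899 CPM in PBS (0.32, edgeR adjusted p = 0.113), and it was called without LPS replicate 1 (edgeR adjusted p = 0.0348).

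**Figure D4:**
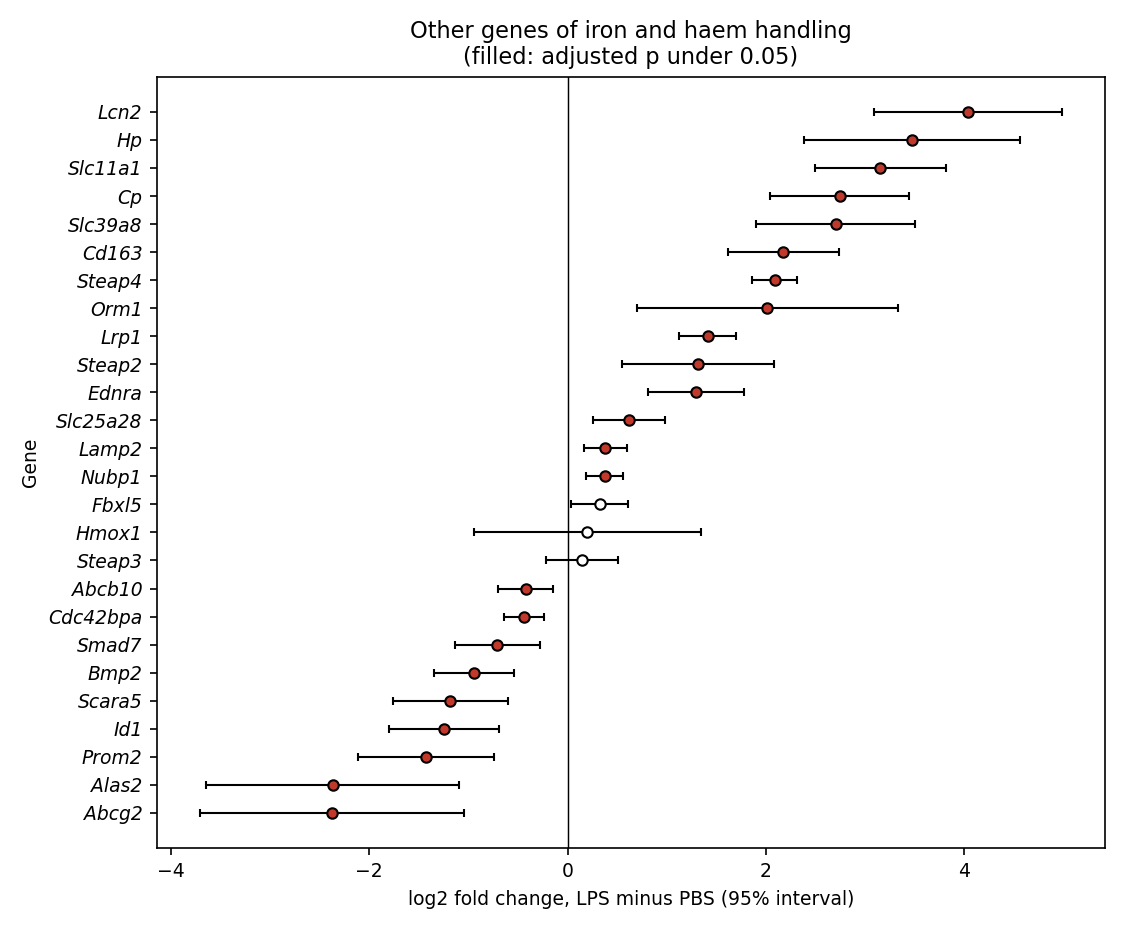
The log2 fold change, LPS minus PBS, of the other genes of iron and haem handling named in the text, from edgeR with its 95% interval, sorted by value. Filled circles had an adjusted p under 0.05. Lcn2 is the highest at 4.04, Abcg2 and Alas2 are the lowest at -2.38 (-1.60 without PBS replicate 1) and -2.37, and Hmox1, Steap3 and Fbxl5 are open circles near 0.

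Haem carries much of the body's iron. Of 16 tested genes of its uptake, breakdown and export, 3 were higher and 1 lower (25%, beside 16.9% of all genes, median 0.15). Cd163, the haemoglobin receptor of macrophages, had 182 ± 64.1 CPM in LPS and 40.2 ± 8.67 CPM in PBS (2.18, edgeR adjusted p = 0.00133). It is also one of the macrophage markers counted above. Lrp1, a receptor for haemopexin and many other ligands, had 1073 ± 173 CPM in LPS and 403 ± 22.2 CPM in PBS (1.41, edgeR adjusted p = 0.000568). Hmox1, the haem oxygenase that frees iron from haem, had 95.8, 62.1, 296 and 149.9 CPM in LPS libraries, against 130.1, 141, 57.7 and 197 CPM in PBS libraries. Its groups overlapped throughout (0.20, 95% interval -0.94 to 1.34, edgeR adjusted p = 0.818), and the sign turned without LPS replicate 3 or PBS replicate 3. Abcg2, a porphyrin exporter, fell by 2.38 (edgeR adjusted p = 0.0269). It had 5.88, 8.11, 5.27 and 4.60 CPM in LPS libraries, against 69.9, 20.7, 25.4 and 7.82 CPM in PBS libraries. The groups overlapped, PBS replicate 1 was far above the rest, and without it the log2 fold change was -1.60 (edgeR adjusted p = 0.0299). The call was lost with limma-voom and without LPS replicate 1, 3 or 4.

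Of 12 tested genes of haem synthesis reported here, 2 were lower (16.7%, close to the 16.9% of all genes, median -0.17). Alas2, the first enzyme of the pathway in red cell precursors, had 3.43 ± 2.33 CPM in LPS and 17.7 ± 7.86 CPM in PBS (-2.37, edgeR adjusted p = 0.0234). It is one of the red cell markers, whose sums are given above, and its call was lost without LPS replicate 1 or 4 or PBS replicate 2. Abcb10, a mitochondrial carrier, fell by 0.42 (edgeR adjusted p = 0.0462), a call lost without any one of 6 libraries (LPS replicates 2 to 4, PBS replicates 2 to 4).

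Mitochondrial iron and the iron-sulphur clusters had 2 of 26 tested genes higher and 0 lower (7.69%, beside 16.9% of all genes, median 0.028). They were Slc25a28, mitoferrin 2 (0.62, edgeR adjusted p = 0.0318), and Nubp1, a factor of cytosolic cluster assembly (0.37, edgeR adjusted p = 0.0173). The call of Slc25a28 was lost without LPS replicate 4 or any one PBS library, and that of Nubp1 without PBS replicate 2 or 3.

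Of 6 tested genes that bind iron, haem or bacterial iron carriers outside cells, 3 were higher and 0 lower (median 1.08). This is 50%, beside 16.9% of all genes. Lcn2, which captures bacterial siderophores, had 3089 ± 820 CPM in LPS and 188 ± 86.3 CPM in PBS (4.04, edgeR adjusted p = 0.000946). Hp, haptoglobin, which binds free haemoglobin, had 12.5 ± 6.76 CPM in LPS and 1.12 ± 0.494 CPM in PBS (3.47, edgeR adjusted p = 0.00279). Orm1, an acute phase protein, rose by 2.01 (edgeR adjusted p = 0.0455), with groups that overlapped and a call lost without LPS replicate 1, 2 or 3 or PBS replicate 2, 3 or 4. Lactoferrin, Ltf, was at 0 in all 8 libraries. As the annotation behind the counts is not given, an absent transcript and uncounted reads cannot be told apart.

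In the autophagy and lysosome genes that release iron from ferritin, 1 of 15 was higher and 1 lower (median 0.0078). This is 13.3%, beside 16.9% of all genes. Lamp2, a lysosomal membrane protein, rose by 0.38 (edgeR adjusted p = 0.0291), a call lost without any one of LPS replicates 1, 2 and 3 and PBS replicates 2, 3 and 4. Prom2, linked to the release of ferritin in vesicles, fell by 1.43 (edgeR adjusted p = 0.0148). Of 8 other transcripts listed as possible carriers of an iron-responsive element, 1 was higher and 2, Cdc42bpa and Alas2, were lower. This is 37.5%, beside 16.9% of all genes. Ednra, an endothelin receptor, rose by 1.29 (edgeR adjusted p = 0.00553), and Cdc42bpa, a kinase, fell by 0.44 (edgeR adjusted p = 0.0122).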

How the data were processed

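RNA of rat cervix was sequenced in 8 libraries, made with the VAHTS Universal V6 kit after TRIzol extraction, per the labels' protocols. The values are raw, unscaled counts of reads per gene symbol, as deposited. Tools named in the submitters' processing notes are HISAT2, HTSeq, fastp and R 3.2.0, with the build mRatBN7.2. The sources used here give no roles, strand setting or annotation, so overlapping, antisense and near-identical genes could not be told apart. Columns were matched by the library names in the labels. Within groups, every pair of libraries was further apart than counting noise allows (chi-square per degree of freedom of 57.2 or more).

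Genes were filtered with filterByExpr by group and tested with edgeR 4.0.16 in R 4.3.3 (TMM, robust quasi-likelihood F test, no covariate, Benjamini-Hochberg over 16117 genes, called under 0.05). SE is the log2 fold change over the square root of F. The fit was tested on simulated data. Ratios use raw counts and carry no test. As alternatives, scaling was by upper quartile or RLE, the filter was dropped or set to 1 CPM in 4 or more libraries, the tool was limma-voom 3.58.1 or DESeq2 1.42.0, and libraries were changed: each left out, PBS replicate 1 and LPS replicate 2 left out together, and a replicate block added.

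The members, the lists and the naming rule were chosen with earlier results of these data known. The rule took the 10 members, 10 fixed genes and the 2 called genes with the lowest adjusted p and at least 1 CPM in each list. 1 called gene of the lists is not reported here and is left out of their counts. Counting error alone lies behind the floor of 3 counts.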

Additional observations from a re-analysis of the deposited data

Results flagged for a closer look

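Within a group of 4 libraries, a library was singled out where its gap to the nearest other exceeded the 95% critical value of Dixon's test, as a share of the group's range. This held for 9 of 84 groups of values, and chance alone singles out about 1 in 20. Of the 20 groups of the 10 iron genes, 2 stood out. LPS replicate 3 held 235 CPM of Slc39a14 where the other LPS libraries had 71.1 to 87.9 CPM, and PBS replicate 3 held 151 CPM of Ncoa4 where the other PBS libraries had 173 to 177 CPM.

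LPS replicate 3 was also apart in Slc39a8 (143 CPM, with 56.1 to 63.5 CPM in the other LPS libraries), in Cd163 (278 CPM, with 147 to 153 CPM) and in Ednra (197 CPM, with 108 to 118 CPM). PBS replicate 1 held 53.1 CPM of Cd163 where the other PBS libraries had 34.2 to 36.9 CPM. PBS replicate 4 held 17.9 CPM of Bmp2 (others 11.3 to 12.3 CPM) and 0.120 CPM of Hamp (others 0.0246 to 0.0255 CPM, or 1 count each), and was the shallowest library at 33191039 counts (others 39836415 to 40634384).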

How the results depend on the processing

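The 10 iron genes kept their direction under all 16 alternatives, and Fth1, Slc39a14, Slc11a2 and Slc40a1 also kept their calls. Of 160 values, 143 stayed on the same side of the threshold, 16 lost a call (9 of Ftl1, 7 of Heph) and 1 gained one (Tfrc with DESeq2). The count of members lower was 1 under the replicate block and with PBS replicate 1 and LPS replicate 2 both left out, and ran from 1 to 2 with 1 library left out. The calls of Ftl1 and Heph were lost under the replicate block (edgeR adjusted p of 0.0822 and 0.0553). So were those of Abcg2, Alas2, Abcb10 and Nubp1 (edgeR adjusted p of 0.0519, 0.0628, 0.123 and 0.0521). Deviations of same-numbered libraries from their group means had correlations of -0.13, -0.18, -0.087 and 0.21. The labels name no pairs, and this check cannot exclude a pairing. Replicate numbers follow the sample titles, and the library name of LPS replicate 4 ends in another number. Leaving out 1 library gave 904 to 1385 genes higher and 563 to 1199 lower, with 9 to 16 of the other iron genes higher and 5 to 10 lower. Without PBS replicate 2 the counts were 904, 563, 9 and 5. DESeq2 called 2089 genes lower and 17 other iron genes lower. Of 416 values of the other 26 named genes, 353 stayed on their side of the threshold, 58 lost a call, 1 gained one and 4 turned sign. Hmox1 was -0.0012 under the replicate block, and ran from -0.36 (without LPS replicate 3) to 0.46 with 1 library left out, with -0.045 without PBS replicate 3. Steap3, at 0.045 to 0.26 with 1 library left out, was -0.036 with PBS replicate 1 and LPS replicate 2 both left out. The log2 ratio of Aco1 to Ireb2 ran from -0.014 (without LPS replicate 1) to 0.30 with 1 library left out. The cause was not tested.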
